A study of Mus musculus with 9 samples.

Results

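The Hox cluster genes, 32 of the 18484 genes listed for these tumours, were examined along their 4 chromosomal clusters. Members were taken from the genes whose symbol was Hoxa, Hoxb, Hoxc or Hoxd followed only by a number, and comprised 9 Hoxa members (Hoxa2 to Hoxa7, Hoxa9, Hoxa10 and Hoxa11), 9 Hoxb members (Hoxb1 to Hoxb9), 7 Hoxc members (Hoxc4, Hoxc5, Hoxc6, Hoxc8, Hoxc9, Hoxc10 and Hoxc13) and 7 Hoxd members (Hoxd3, Hoxd4, Hoxd8, Hoxd9, Hoxd10, Hoxd11 and Hoxd13). Other genes of the family were not analysed here.

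RNA was taken from 9 snap-frozen mammary tumours of BlgCre-NeuKI mice, with 1 library per tumour. In these mice of mixed FVB and C57Bl6 background, which all carried 1 copy of each allele, a Cre driven by the milk protein promoter Blg, active mainly in luminal oestrogen receptor-negative mammary cells, switches on an activated rat Neu placed in the endogenous Erbb2 locus behind a floxed STOP cassette. The 5 high-amplified tumours, in which the Erbb2/Neu locus was gained by genomic qPCR, were all adenocarcinomas of no special type, AC(NST). Virgin mice gave MS1163.1, MS1163.2 and MS1213.1, and parous mice gave MS1155.3 and MS1218.2. In the paper, droplet digital PCR of the Neu allele scored MS1213.1 and MS1218.2 low. Exome copy number found a gain in MS1213.1 but not in MS1218.2, so that, of these DNA measurements, only qPCR scored MS1218.2 high. MS1218.2 was also the 1 sample that the paper excepted from its statement of high tumour cell purity. Of the 3 epithelial tumours labelled not/low-amplified, MS1210.1 and MS1349.1 were metaplastic adenosquamous carcinomas (ASQC) and MS1166.1 was an AC(NST), and all came from parous mice. MS1156.1 was a mammary sarcoma from a parous mouse, also labelled not/low-amplified. By their numbers, MS1163.1 and MS1163.2 arose in 1 mouse, so that p-values measure the spread between tumours and not wholly between animals. Every ASQC was not/low-amplified and every tumour of a virgin mouse was high-amplified, so that these groupings cannot be told apart fully. The age of each animal and the mammary gland that each of these tumours arose in are not given in the sources used here.

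Hox genes encode homeodomain transcription factors that give cells their position along the body axis in the embryo. They lie in tandem in each cluster, and low-numbered (3′) genes are switched on earlier and further forward than high-numbered (5′) genes. Adult tissues and fibroblasts keep part of this pattern, and in the mammary gland several members, among them Hoxa5, Hoxb9, Hoxc6, Hoxc8 and Hoxd10, take part in the development or differentiation of the epithelium. Hox proteins bind DNA together with cofactors of the Pbx, Meis and Pknox families, while Polycomb proteins hold silent parts of the clusters in a repressed state and Kmt2a (MLL1) keeps active parts open.

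In the GRCm38 build the Hoxa members lay on chromosome 6 (52162417 to 52245810, minus strand), the Hoxb members on chromosome 11 (96271457 to 96368256, plus strand), the Hoxc members on chromosome 15 (102921103 to 103036852, plus strand) and the Hoxd members on chromosome 2 (74668310 to 74748442, plus strand). Hoxb1, the last Hoxb member, ended 2044 kb before the start of Erbb2 on the same chromosome. To show what the sequence before members of different behaviour looked like, the 250 bases before the start of Hoxa5, Hoxb4 and Hoxd8 are printed 5′ to 3′ on the gene's strand from RefSeq (GRCm38.p6), with each CG dinucleotide in capitals. Hoxa5 stood for the low-numbered Hoxa members that differed most between tumours, Hoxb4 for the members detected in all 8 epithelial tumours, and Hoxd8 for the member with the highest count in the sarcoma. None of these windows overlapped an annotated exon. That of Hoxa5 (chr6:52204588-52204837, minus strand) was intronic to Hoxa3, that of Hoxb4 (chr11:96318017-96318266, plus strand) lay between genes, and that of Hoxd8 (chr2:74704365-74704614, plus strand) was intronic to the antisense gene Hoxd3os1.
Hoxa5: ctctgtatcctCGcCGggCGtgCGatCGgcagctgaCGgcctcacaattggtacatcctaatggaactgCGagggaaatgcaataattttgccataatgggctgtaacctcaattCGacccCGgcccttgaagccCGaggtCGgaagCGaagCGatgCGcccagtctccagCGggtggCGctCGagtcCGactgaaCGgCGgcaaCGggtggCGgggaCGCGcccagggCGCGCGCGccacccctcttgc
Hoxb4: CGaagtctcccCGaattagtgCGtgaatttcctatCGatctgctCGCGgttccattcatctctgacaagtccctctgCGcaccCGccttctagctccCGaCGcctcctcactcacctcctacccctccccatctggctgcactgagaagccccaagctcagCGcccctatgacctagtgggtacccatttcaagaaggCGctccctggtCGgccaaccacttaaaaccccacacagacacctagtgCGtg
Hoxd8: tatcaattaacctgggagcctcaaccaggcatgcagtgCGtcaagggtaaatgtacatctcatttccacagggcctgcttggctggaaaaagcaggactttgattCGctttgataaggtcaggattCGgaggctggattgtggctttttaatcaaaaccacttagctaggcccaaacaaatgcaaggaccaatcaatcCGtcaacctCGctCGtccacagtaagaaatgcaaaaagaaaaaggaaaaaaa
The Hoxa5 window held 28 CG dinucleotides, the Hoxb4 window 14 and the Hoxd8 window 6. Of 32851 such windows of all genes, 7.61% held at least as many as Hoxa5, 29.4% at least as many as Hoxb4 and 50.4% at least as many as Hoxd8, and the median over all windows was 6. Over the 21 windows that were available, for 19 members, the median was 12. The letters TGATTNAT, a core of the composite Pbx and Hox site, occurred on either strand in 2 of these 21 windows (Hoxa2 and Hoxd11) and in 2.83% of all windows, and in none of the 3 printed here. These matches are descriptions of the letters and not binding sites.

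Between 12501225 and 23912429 reads were counted on genes in each tumour. Values below are normalized counts, that is counts divided by a median-of-ratios size factor over the 9 tumours (0.744 to 1.48), unless a count or a level per kilobase of exon is named. A count of 0 allows a normalized count of up to 2.02 to 4.03, depending on the tumour, and floors and intervals cover counting error only. MS1218.2 stood apart in its stroma, with a summed normalized count of 355332 over 6 fibroblast markers against 27904 to 110392 in the other epithelial tumours, of 10601 over 5 endothelial markers against 1783 to 4493, and of 12448 over 5 leukocyte markers against 1099 to 6698. The sarcoma had few epithelial transcripts, with a sum of 438 over the 5 luminal markers (Epcam, Cdh1, Krt8, Krt18 and Krt19) against 29624 to 121488 in the epithelial tumours. It had more of 6 fibroblast markers (584100) than any epithelial tumour. It had 12642 over the 4 skeletal muscle markers, of 5 listed, that were among the genes counted, against 10.03 to 2461 in the epithelial tumours. In whole-tumour RNA, fewer cells of a type and less RNA per cell cannot be told apart.

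The Hox genes were expressed at low levels, and an order of levels along the clusters was not tested. All 32 members together received 152 to 1062 counts per epithelial tumour and 155 in the sarcoma. With at least 10 counts taken as detected, 23 members were detected in some tumour, 3 (Hoxb3, Hoxb4 and Hoxd8) in all 8 epithelial tumours, and 9 (Hoxa2, Hoxa11, Hoxb1, Hoxb9, Hoxc10, Hoxd3, Hoxd10, Hoxd11 and Hoxd13) in none. The undetected members lay at or near the ends of the clusters in the main. Ordered by the median level per kilobase of exon over the epithelial tumours, Hoxd8 (14.3) and Hoxb4 (13.9) came first, followed by Hoxb3 (8.40), Hoxc6 (6.74), Hoxb2 (5.48) and Hoxc8 (5.37), and the highest Hoxa members were Hoxa5 (4.93) and Hoxa6 (4.14). Neighbours in this order did not separate beyond their spread: Hoxb3, the least variable of these members, ranged 5.33-fold from MS1155.3 to MS1213.1.

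**Figure D1:**
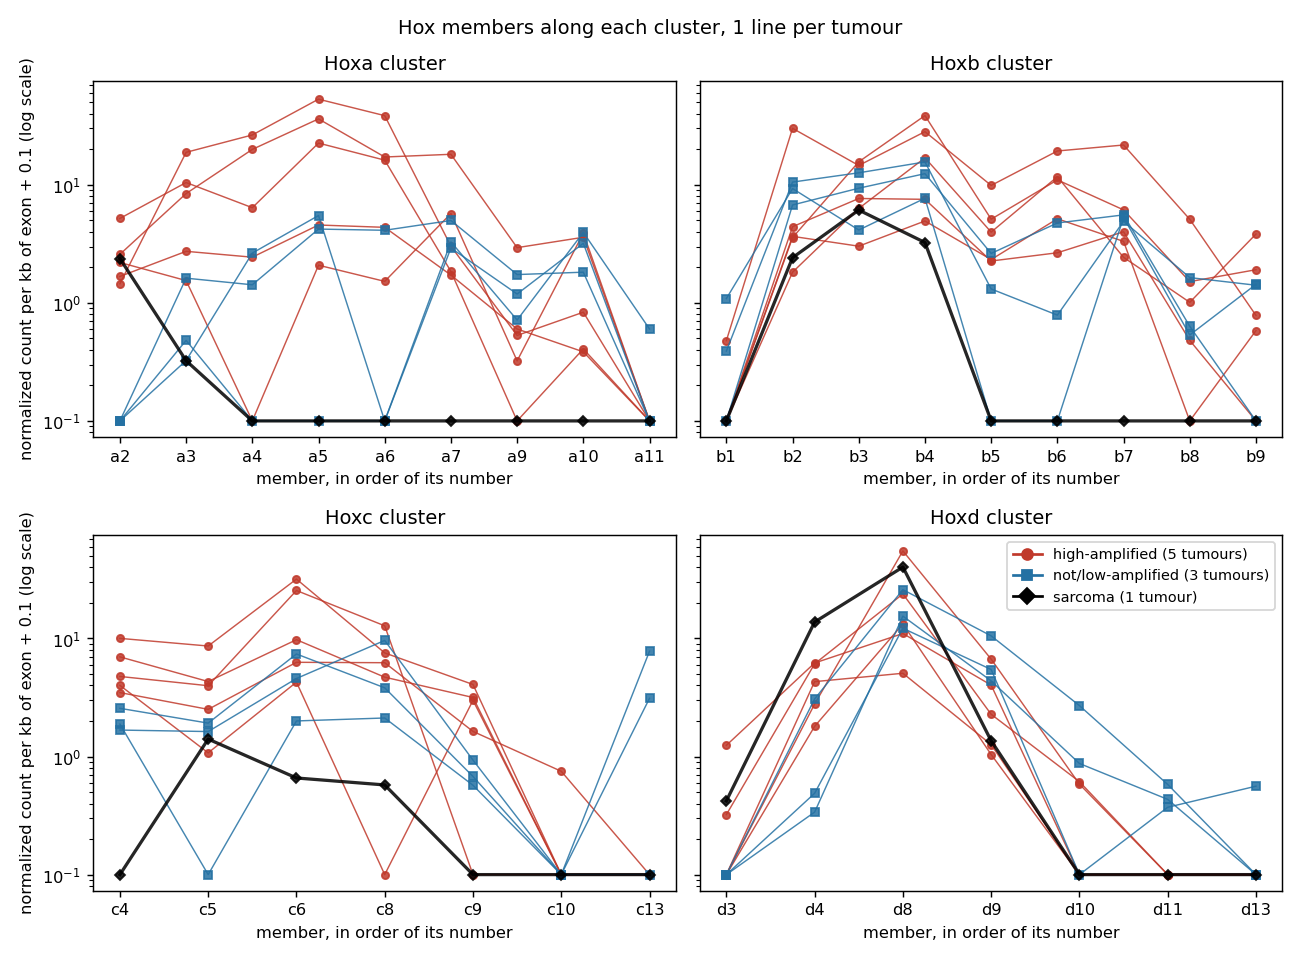
Normalized count per kilobase of exon plus 0.1 (log axis) of each Hox member in order of its number, 1 panel per cluster and 1 line per tumour; red circles are the 5 high-amplified, blue squares the 3 not/low-amplified epithelial tumours and black diamonds the sarcoma. Hoxd8 is the highest Hoxd member in every tumour, and the sarcoma lies at 0 counts from Hoxa4 and from Hoxb5 onwards while it reaches 40.2 per kilobase for Hoxd8.

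The Hoxb cluster was led by Hoxb2, Hoxb3 and Hoxb4. Hoxb4, a factor known for expanding blood stem cells, had 98.7 (MS1213.1), 19.1 (MS1163.1), 43.2 (MS1163.2), 72.0 (MS1218.2) and 12.4 (MS1155.3) in the high-amplified tumours, and 39.8 (MS1210.1), 31.6 (MS1349.1) and 19.5 (MS1166.1) in the not/low-amplified ones. Hoxb3 had 66.1, 32.1, 26.4, 61.5 and 12.4 in the high-amplified tumours and 53.3, 39.3 and 17.2 in the not/low-amplified ones, in the same order of tumours. For both genes the groups overlapped across most of their range, MS1213.1 was the highest and MS1155.3 the lowest. Of the exon bases of Hoxb3, 52.9% were shared with the antisense gene Hoxb3os, whose reads may not have been told apart from those of Hoxb3. Hoxb3os also shared 27.3% of the exon bases of Hoxb2, with the same limit. Among the 32 members, 15 shared exon bases with some gene, 9 of them with a gene on the same strand. Hoxb5, Hoxb6, Hoxb7 and Hoxb8 were all highest in MS1218.2 (27.2, 37.8, 33.4 and 13.2). Hoxb7, which promotes proliferation of breast cells, had 9.31, 6.02, 3.60, 33.4 and 4.96 in the high-amplified tumours and 7.42, 8.43 and 8.01 in the not/low-amplified ones, so that all but MS1218.2 stayed under 10 in this gene. Hoxb9 did not pass 9.59 and Hoxb1 did not pass 2.29 in any tumour.

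The Hoxc cluster was led by Hoxc6 and Hoxc8. Hoxc6 had 23.3, 10.03, 61.1, 76.4 and 14.9 in the high-amplified tumours, in that order, and 10.8, 17.6 and 4.58 in the others. Hoxc8 had 13.0, 0, 36.0, 21.1 and 17.4 in the high-amplified tumours and 27.0, 10.5 and 5.72 in the not/low-amplified ones. MS1163.1 and MS1163.2, from the same mouse, were thus unlike in both genes: Hoxc8 was at 0 counts in one and highest of all 9 tumours in the other. Hoxc4 and Hoxc5 lay between 0 and 26.4, Hoxc9 did not pass 9.66, and Hoxc10 was at 0 in 8 of the tumours.

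In the Hoxd cluster Hoxd8 stood out, between Hoxd3 and Hoxd4 on its 3′ side and Hoxd9 to Hoxd13 on its 5′ side. Hoxd8 had 65.2 (MS1213.1), 36.1 (MS1163.1), 30.0 (MS1163.2), 151 (MS1218.2) and 13.7 (MS1155.3) in the high-amplified tumours, and 70.8 (MS1210.1), 42.1 (MS1349.1) and 33.2 (MS1166.1) in the others. Beyond it the levels dropped: Hoxd9 was between 2.01 and 22.3, Hoxd10 did not pass 4.72, Hoxd11 did not pass 2.02, and Hoxd13 received a single count, in MS1166.1. Hoxd3 and Hoxd4 share 62.4% and 52.3% of their exon bases with other genes on the same strand, each other included, so that their separate counts are uncertain.

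MS1218.2 was the highest of the 9 tumours for 12 of the 23 detected members, whereas it was the highest for 13.6% of the 15551 genes detected in some tumour. It had 21 members detected, and the other epithelial tumours had 6 (MS1166.1) to 15 (MS1349.1). The fibroblast, endothelial and leukocyte marker sums of this tumour, given above, were also the highest among epithelial tumours, and their part in its Hox counts was not tested. Summed over the cluster, Hoxb gave 352 in MS1218.2 and 59.6 to 230 in the other epithelial tumours, and Hoxa gave 248 in MS1218.2 against 303 in MS1163.2 and 28.6 to 144 in the other 6.

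**Figure D2:**
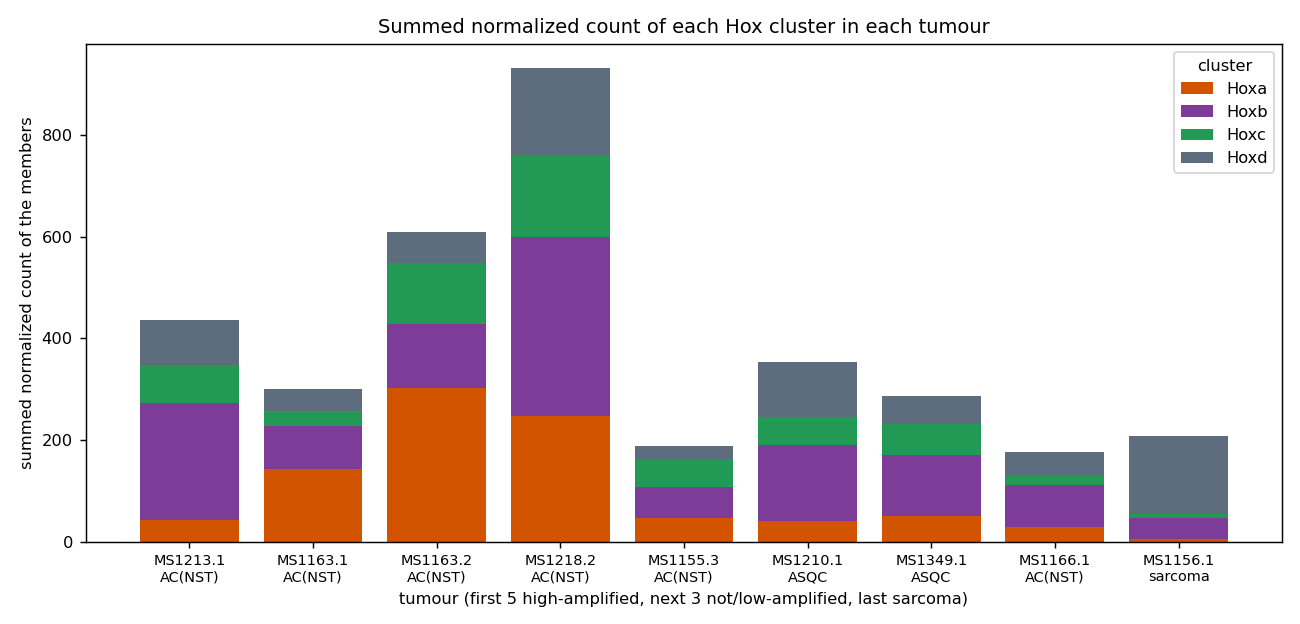
Stacked bars of the summed normalized count of the members of each Hox cluster in each tumour, with the histotype under the tumour's number. The bars run from 176 in MS1166.1 to 933 in MS1218.2, Hoxa is the largest part of MS1163.1 and MS1163.2, and Hoxd makes up most of the sarcoma MS1156.1 (155 of 208).

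The low-numbered Hoxa members formed a block that was high in MS1163.1, MS1163.2 and MS1218.2. Hoxa5, a regulator of mammary epithelial differentiation, had 8.38 (MS1213.1), 42.1 (MS1163.1), 99.5 (MS1163.2), 67.6 (MS1218.2) and 3.72 (MS1155.3) in the high-amplified tumours, and 10.1 (MS1210.1), 7.72 (MS1349.1) and 0 (MS1166.1) in the others. Hoxa3, which patterns pharyngeal organs in the embryo, had 15.8, 62.2, 113, 50.1 and 8.69 in the high-amplified tumours and 1.35, 9.13 and 2.29 in the not/low-amplified ones. Hoxa6 had 3.72, 14.05, 33.6, 14.9 and 1.24, and 0, 3.51 and 0. Of the 2 remaining high-amplified tumours, MS1155.3 thus lay within the range of the not/low-amplified tumours in each of these genes. MS1213.1 lay within it for Hoxa5, just above it for Hoxa6, and above it for Hoxa3 (15.8 against at most 9.13). Among all 32 members, 4 had MS1163.1, MS1163.2 and MS1218.2 as their 3 highest epithelial tumours, namely Hoxa3, Hoxa4, Hoxa5 and Hoxa6. Hoxa4, named after its values were seen, reached 42.0 in MS1163.2. The 3 tumours came from only 2 mice, and this grouping of tumours was read from the values, so it carries no test.

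The block ended between Hoxa6 and Hoxa7. Summed over Hoxa3 to Hoxa6, the normalized count was 128 in MS1163.1, 288 in MS1163.2 and 164 in MS1218.2, against 31.7 in MS1213.1, 13.7 in MS1155.3, 15.5 in MS1210.1, 2.29 in MS1166.1 and 22.5 in MS1349.1. Summed over Hoxa7, Hoxa9 and Hoxa10, it was 6.02 and 13.2 in MS1163.1 and MS1163.2, below the 24.3, 28.8 and 25.2 of MS1210.1, MS1349.1 and MS1166.1. It was 8.38 in MS1213.1 and 29.8 in MS1155.3, and it was 79.1 in MS1218.2, which was therefore high in both parts of the cluster. Hoxa2, the 3′ neighbour of Hoxa3, stayed at or below 9.03 (9 counts, in MS1163.1) in every tumour. At so few counts, whether it followed the block cannot be told. Of all Hox counts, the Hoxa cluster received 47.7% in MS1163.1 (95% Wilson interval 42.1 to 53.3) and 49.7% in MS1163.2 (45.4 to 54.0), and from 9.81% to 26.6% in the other epithelial tumours.

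**Figure D3:**
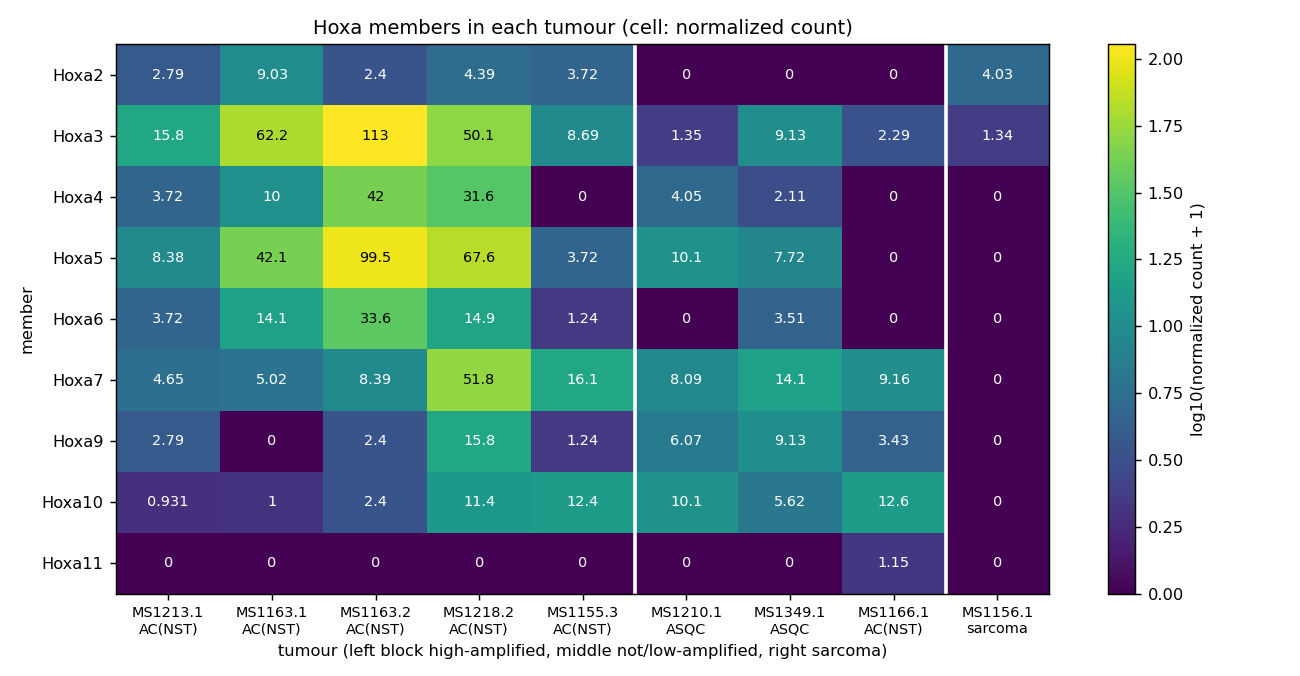
Normalized count of each Hoxa member (rows) in each tumour (columns), printed in each cell and coloured by log10 of the value plus 1; white lines part the columns by amplification group and set off the sarcoma. Hoxa3 to Hoxa6 are high in MS1163.1, MS1163.2 and MS1218.2, and Hoxa10 is between 0.931 and 2.40 in MS1213.1, MS1163.1 and MS1163.2 and between 5.62 and 12.6 in the other epithelial tumours.

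No Hox gene passed the test by amplification, which set the 5 high-amplified tumours against the 3 not/low-amplified ones and addressed whether gain of the Erbb2/Neu locus goes with a different expression pattern. In edgeR's quasi-likelihood test 19 members reached 10 counts in 3 or more tumours and were tested, and 0 were called at a Benjamini-Hochberg adjusted p under 0.05 and a fold over 2, against 0.921% of the 14007 genes tested. At an unadjusted p under 0.05 there were 3 members of 19 (Hoxa3, Hoxc4 and Hoxa6), against 22.8% of all genes, a share that lay above that of the members. The filter on low counts kept Hoxa4, Hoxa6, Hoxc4 and Hoxc5 through the high-amplified tumours alone, and left out Hoxc13, Hoxd10 and Hoxd11, which were lower there, so that signs are given over all 32 members without it. The log2 fold change was then positive for 22 members and negative for 10, with a median of 0.68, where 52.3% of 18358 genes were positive with a median of 0.06. It was positive for 6 of 9 Hoxa, 7 of 9 Hoxb, 6 of 7 Hoxc and 3 of 7 Hoxd members, many of them at few counts.

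Hoxa3 had the smallest p-value, with a mean of 49.9 ± 41.7 (SD, n = 5) in the high-amplified tumours and 4.26 ± 4.25 (SD, n = 3) in the others. Its log2 fold change was 3.49 ± 1.06 (SE), with an adjusted p of 0.109 in edgeR's test. Its lowest high-amplified tumour, MS1155.3 (8.69), lay below its highest not/low-amplified tumour, MS1349.1 (9.13). Of the exon bases of Hoxa3, 27.1% were shared with other genes, 8.0% with genes on the same strand, so that part of its counts is uncertain. Hoxa6 differed by 3.31 ± 1.36 with an adjusted p of 0.186 in edgeR's test, and Hoxa5 by 2.83 ± 1.27 with an adjusted p of 0.221. Hoxa6 was kept by the filter through the high-amplified tumours alone, and without the filter its edgeR adjusted p was 0.226.

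Hoxc4 was the 1 tested member whose groups did not overlap, where 15.6% of all genes did not overlap. It had 17.7, 10.03, 12.0, 25.5 and 8.69 in the high-amplified tumours and 4.05, 6.32 and 4.58 in the not/low-amplified ones. Its log2 fold change was 1.57 ± 0.63, and the edgeR adjusted p was 0.181. The filter on low counts kept Hoxc4 through the high-amplified tumours alone. Its p-value and lack of overlap are thus partly set by that filter, and without it the edgeR adjusted p was 0.283. Of the members not tested, Hoxa2 (higher) and Hoxd11 (lower) did not overlap either, at few counts. Hoxd9 and Hoxa10 were the 2 tested members with a negative value, of -1.14 ± 0.74 (edgeR adjusted p 0.378) and -0.70 ± 0.91 (0.669). Hoxd9 had 4.65, 2.01, 8.39, 14.1 and 2.48 in the high-amplified and 22.3, 9.13 and 11.4 in the not/low-amplified tumours, so that MS1218.2 was the 1 high-amplified tumour inside the range of the not/low-amplified ones.

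DESeq2 gave a different count. It called 2 Hox members, Hoxa3 (log2 fold change 3.53, adjusted p 0.00455) and Hoxa2 (4.90, adjusted p 0.0448), among 24 members with an adjusted p, and it also called 10.4% of all genes, where edgeR called 0.921%. Hoxa2 rested on 22 counts in all over the 5 high-amplified tumours and 0 in the 3 others, and was at least 5.72-fold higher against a floor of 3 counts over that group. By limma on the log2 of the normalized values 0 Hox genes were called. Without MS1218.2, edgeR called 0 of the 15 members that it then tested, and the adjusted p of Hoxa3 was 0.0795.

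**Figure D4:**
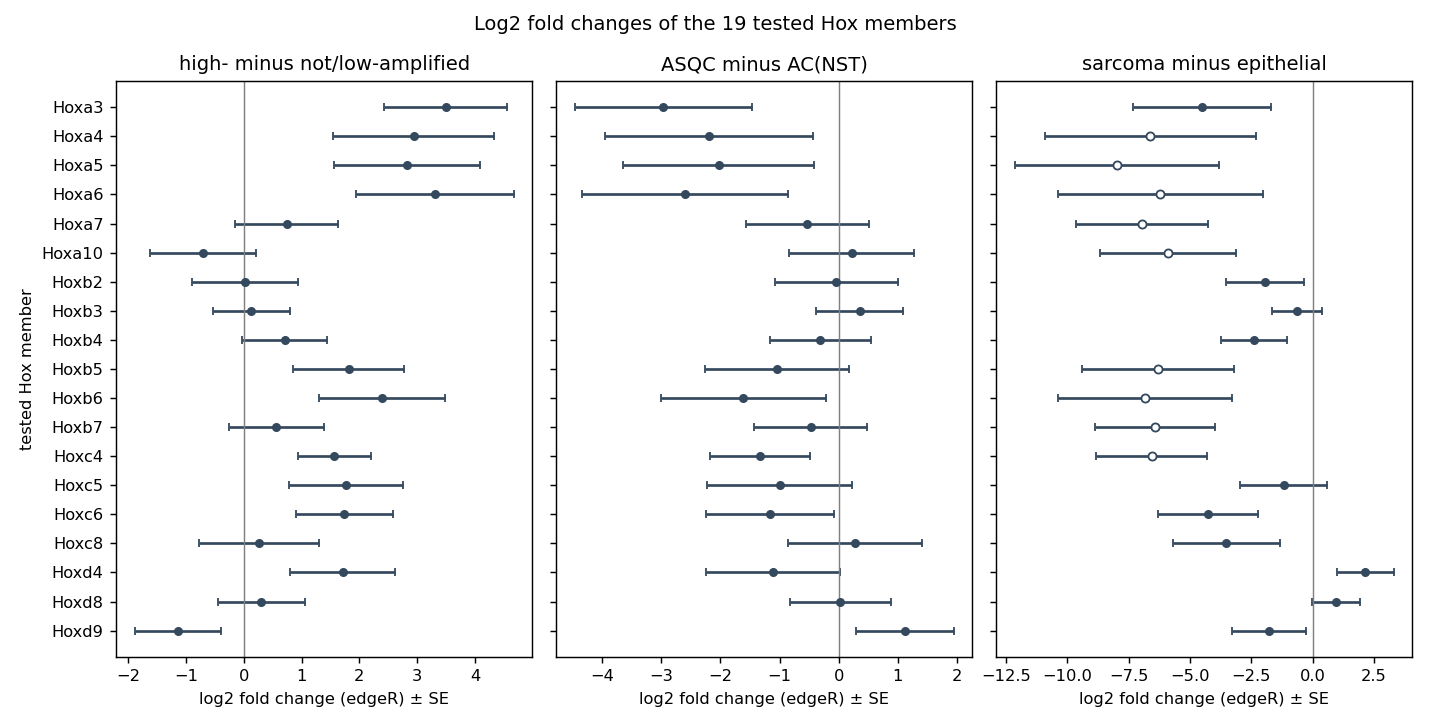
Log2 fold change with its SE from edgeR for the 19 tested Hox members by amplification, by histotype and in the sarcoma; the horizontal scales differ, and open points in the sarcoma panel are the 9 members at 0 counts there, whose fitted value depends on the prior count. Hoxa3 to Hoxa6 lie furthest from 0 by amplification (2.83 to 3.49), and Hoxd4 and Hoxd8 are the 2 members above 0 in the sarcoma.

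Since the Hoxb cluster lies on the chromosome of Erbb2, its members were set beside the genes of that locus. Erbb2 had a mean of 35435 in the high-amplified and 2004 in the not/low-amplified tumours, Grb7, an adaptor gene next to Erbb2, had 9012 and 649, and Mien1, also adjacent, had 26354 and 652. Their log2 fold changes in edgeR's test were 4.16 ± 1.13 (adjusted p 0.0879), 3.82 ± 0.45 (adjusted p 0.0175) and 5.35 ± 1.05 (adjusted p 0.0510), so that Grb7 rose and the other 2 missed the threshold. The 6 tested Hoxb members lay between 0.02 and 2.39. Among them Hoxb2, with the value nearest to 0 (0.02 ± 0.92), had means of 30.0 and 30.6. Without the filter on low counts 7 of 9 Hoxb members were positive and 2 negative, with Hoxb1, at few counts, at -1.72.

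By histotype, with 2 ASQC against 6 AC(NST), no tested Hox gene passed either. The test addressed whether squamous differentiation goes with another Hox pattern. EdgeR called 0 of 19 members and 0.236% of all genes, and at an unadjusted p under 0.05 there were 0 members against 8.72% of all genes. DESeq2 also called 0 members, against 3.34% of all genes, and limma called 0. The groups overlapped for every tested member, where 10.2% of all genes did not overlap. Hoxa3 had the smallest p-value, with a mean of 5.24 ± 5.50 (SD, n = 2) in ASQC and 42.0 ± 42.0 (SD, n = 6) in AC(NST) tumours, a log2 fold change of -2.97 ± 1.49 and an edgeR adjusted p of 0.612. Since both ASQC tumours were not/low-amplified, this contrast shares its tumours with the one above. With amplification as a covariate, that is against MS1166.1 in effect, the value of Hoxa3 turned to 1.20, that of Hoxa6 from -2.60 to 4.01 and that of Hoxc4 from -1.33 to 0.22.

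Hoxc13, a regulator of hair and nail keratin genes at the 5′ end of the Hoxc cluster, was counted in the 2 ASQC tumours alone. It received 27 counts in MS1349.1, 11 in MS1210.1 and 0 in the 6 AC(NST) tumours and in the sarcoma. With 38 counts in the ASQC tumours its pooled level was at least 24.9-fold higher than in the AC(NST) tumours, against a floor of 3 counts over that group, and at least 14.2-fold without MS1349.1. It was present in too few tumours for the test, and without a filter on low counts its edgeR adjusted p was 0.129, so that the call was not made. It was named after its values were seen. The ASQC tumours also held 14309 and 2721 normalized counts over 5 squamous markers (Krt1, Krt10, Ivl, Lor and Krt6a), against 14.1 to 426 in the AC(NST) tumours, and the part of squamous cells in the Hoxc13 counts was not tested. MS1349.1 had more Hoxc13 and MS1210.1 more of the squamous markers. Hoxc9 and Hoxc10, the listed neighbours of Hoxc13, were not detected in either ASQC tumour.

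Hoxd10 and Hoxd11, at the 5′ end of the Hoxd cluster, were also a little higher in the ASQC tumours but stayed under 10 counts. Hoxd10 had 4.72 in MS1210.1 and 1.41 in MS1349.1 against at most 0.931 in the AC(NST) tumours, and Hoxd11 had 2.02 and 1.41 against 1.15 in MS1166.1 and 0 in the other 5. Hoxd10 in MS1210.1 lay above what a count of 0 allows in that tumour (2.02), and the other values lay at or under that of their tumour. The groups did not overlap for either gene, and the filter on low counts left both out of the test. Without it, the edgeR log2 fold change was 2.82 for Hoxd10 (unadjusted p 0.0387, adjusted p 0.4998). For Hoxd11 it was 2.62 (unadjusted p 0.0653, adjusted p 0.5769), so that neither was called. Hoxd9, tested, had a mean of 15.7 ± 9.28 (SD, n = 2) and 7.17 ± 4.94 (SD, n = 6), with a log2 fold change of 1.12 ± 0.83 and an edgeR adjusted p of 0.728.

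The sarcoma had its own distribution over the clusters. Of its 155 Hox counts 115 fell on the Hoxd cluster, 31 on Hoxb, 4 on Hoxa and 5 on Hoxc. The Hoxd share was 74.2% (95% Wilson interval 66.8 to 80.4), and in the 8 epithelial tumours it was 10.02% to 30.7%. Only Hoxd8 (82 counts), Hoxd4 (30) and Hoxb3 (19) were detected. Of the 23 members detected in some epithelial tumour, 13 received 0 counts in the sarcoma and 18 received at most 3. These 23 were selected by their counts in the epithelial tumours, which favours low counts in the sarcoma. The like share over all genes was not computed. There was 1 sarcoma, so that none of these values has a replicate. Its fibroblast and skeletal muscle marker sums, given above, were higher than in any epithelial tumour, and their part in its Hox counts was not tested.

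Hoxd8 in the sarcoma was 110, within the epithelial range of 13.7 to 151 and exceeded only by MS1218.2. Hoxd4 was 40.3, above the highest epithelial tumour, MS1163.2 (18.0), by 2.24-fold, and the other epithelial tumours had 17.7 (MS1213.1), 12.4 (MS1155.3), 8.77 (MS1210.1), 7.91 (MS1218.2), 5.02 (MS1163.1), 1.15 (MS1166.1) and 0.702 (MS1349.1), with the limit that its exons overlap those of Hoxd3. Hoxb3 was 25.5, inside its epithelial range. The counts dropped sharply along the Hoxb cluster, from 19 for Hoxb3 and 6 each for Hoxb2 and Hoxb4 to 0 for each of Hoxb5 to Hoxb9. Hoxb5 to Hoxb9 together had 12.6 to 113 normalized counts in the epithelial tumours. On the 5′ side of Hoxd8 the sarcoma had 2 counts of Hoxd9 and 0 of Hoxd10, Hoxd11 and Hoxd13.

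Many members of the Hoxa, Hoxb and Hoxc clusters were at or near 0 counts in the sarcoma. Bounds are given for the pooled level of the 8 epithelial tumours against a floor of 3 counts in the sarcoma (4.03), and single tumours can lie below that floor. Hoxa7 was at 0 counts in the sarcoma and between 4.65 and 51.8 in the epithelial tumours, whose pooled level was at least 3.71-fold higher, or 2.32-fold without MS1218.2. Hoxb7 was at 0 against 3.60 to 33.4, with a pooled level at least 2.61-fold higher (1.75-fold without MS1218.2). Hoxc4 was at 0 against 4.05 to 25.5, with a pooled level at least 2.70-fold higher. Hoxa10 was at 0 against 0.931 to 12.6, with a pooled level at least 1.75-fold higher, although its values in MS1213.1, MS1163.1 and MS1163.2 lay under the floor. Hoxa5 was at 0 too, as in MS1166.1. Hoxc6 was 1.34, from 1 count, against 4.58 to 76.4. The Hoxa sum was 5.38 against 28.6 to 303 in the epithelial tumours, and the Hoxc sum 6.72 against 16.0 to 159.

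Set against all 8 epithelial tumours in edgeR, with the sarcoma assumed to vary like the others, 0 of 19 tested members were called, against 6.95% of 14145 genes. Unadjusted p-values under 0.05 were found for 3 members (Hoxc4, Hoxb7 and Hoxa7), against 19.9% of all genes, and the smallest adjusted p was 0.128, for Hoxc4. DESeq2 called 0 members, against 15.0% of all genes, and had 9 of 32 members at an unadjusted p under 0.05, against 21.4% of all genes. Of the 19 tested members 7 lay below every epithelial tumour, against 20.3% of all genes, and 1, Hoxd4, lay above, against 22.2%. For Hoxd4 the log2 fold change was 2.13 ± 1.16, with an edgeR adjusted p of 0.340, and for Hoxd8 it was 0.95 ± 0.98 (0.624). A member entered the test through the epithelial tumours where it was counted, so that the number of members lower in the sarcoma is partly set by that filter. With the 9 tested members at 0 counts set to their bounds, the median log2 fold change of the 19 was -1.43, and -0.18 over all genes.

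Between the 3 epithelial tumours of virgin and the 5 of parous mice, Hoxa10, Hoxb2 and Hoxa7 had the smallest p-values and none was called. The sarcoma, also from a parous mouse, was left out, and it had 0 counts of Hoxa10 and of Hoxa7. Hoxa10, which is needed for uterine receptivity, had 0.931, 1.003 and 2.40 in the virgin tumours (MS1213.1, MS1163.1, MS1163.2), and 11.4, 12.4, 10.1, 5.62 and 12.6 in the parous tumours (MS1218.2, MS1155.3, MS1210.1, MS1349.1, MS1166.1), so that the groups did not overlap. It was the 1 tested member of which this was true, where 9.26% of all genes did not overlap. Its log2 fold change, virgin minus parous, was -2.79 ± 0.76, the unadjusted edgeR p was 0.00463 and the adjusted p was 0.280, so it was not called. The virgin values rest on 1, 1 and 2 counts. The filter on low counts kept Hoxa10 and Hoxa7 through the parous tumours alone. Their p-values and the lack of overlap are thus partly set by that filter. Without the filter, the edgeR adjusted p of Hoxa10 was 0.361. Hoxb2 had 12.1, 15.0 and 5.99 in the virgin tumours and 105, 12.4, 36.4, 23.2 and 32.1 in the parous ones, with a log2 fold change of -1.91 ± 0.81 and an edgeR adjusted p of 0.345. Hoxa7 had 4.65, 5.02 and 8.39, and 51.8, 16.1, 8.09, 14.1 and 9.16, with -1.73 ± 0.83 and 0.372. EdgeR called 0 of 19 Hox members and 0.0% of all genes, and 2 members had an unadjusted p under 0.05, against 14.2% of all genes. DESeq2 called 0 members, against 3.45% of all genes, and limma called 0. The virgin tumours came from 2 mice and were all high-amplified.

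Of the cofactors of Hox proteins, Pknox2 and Meis2 were called in the sarcoma. Of the 9 cofactor genes listed, 8 were tested in each comparison, and edgeR called 0 by amplification, histotype and parity, where it called 0.921%, 0.236% and 0.0% of all genes. In the sarcoma 2 rose and 0 fell, against 6.95% of all genes called: Pknox2 was 854 against a mean of 28.5 in the epithelial tumours (log2 fold change 4.87 ± 0.84, adjusted p 0.00642) and Meis2 was 573 against 47.1 (3.57 ± 0.71, adjusted p 0.0133). Meis1, named after its values were seen, was 312 against 19.5 to 187 in the epithelial tumours, with 2.01 ± 0.85 and an edgeR adjusted p of 0.219. These values rest on 1 sarcoma, and the part of its fibroblast and skeletal muscle transcripts, given above, was not tested. The median log2 fold change of the 8 was 0.66 in the sarcoma, and -0.18 over all genes.

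Genes that hold Hox clusters silent or active were also examined. All 25 chromatin regulators listed, Polycomb members such as Ezh2, Suz12 and Cbx7 and activators such as Kmt2a and Men1, were tested, and edgeR called 0 in each of the 4 comparisons, in which few genes were called at all outside the sarcoma (6.95%). At an unadjusted p under 0.05 there were 6 of 25 by amplification, 1 by histotype, 0 in the sarcoma and 2 by parity, against 22.8%, 8.72%, 19.9% and 14.2% of all genes. Of the 34 genes listed as lying beside or within the clusters, 21 were among the genes counted and 16 were tested. EdgeR called 0 by amplification, by histotype, in the sarcoma and by parity, against 0.921%, 0.236%, 6.95% and 0.0% of all genes. At such shares, 0 calls among 16 genes say little. At an unadjusted p under 0.05 there were 2, 0, 1 and 1 of 16, against the shares of all genes given above. Of the upstream homeobox genes Cdx1, Cdx2 and Cdx4, 2 were in the files and neither was tested, with Cdx2 and Cdx4 at no more than 3.60 and 2.40 in any tumour.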

How the data were processed

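RNA-seq of 9 mammary tumours was used. The authors removed ribosomal RNA, made strand-specific libraries, mapped the reads to mouse build 38 with STAR (at most 3 mismatches, unique positions only), and counted them per gene with HTSeq-count; the strand setting of the counting is not given in the sources used here. All 9 tumours have counts as deposited: whole numbers, unscaled. The 8 epithelial tumours also have a deposited signal per gene, in which those counts were divided by 1 size factor per tumour, and it served for limma.

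Of the genes that the symbol rule took, 1 is not reported here. Members and lists were chosen with earlier results of these data known. Genes that reached 10 counts in 3 or more tumours of a fit were tested with edgeR 4.0.16 (TMM, quasi-likelihood test) under R 4.3.3, with Benjamini-Hochberg adjustment over all genes tested. The tumours were grouped by their labels: high- against not/low-amplified, ASQC against AC(NST), sarcoma against epithelial, and virgin against parous. In the main fits the sarcoma entered only the comparison with the epithelial tumours. Calls needed an adjusted p under 0.05 and a fold over 2. Alternatives were DESeq2 1.42.0, limma 3.58.1 on log2 values (pseudocount 1 or 10), other filters and scalings, covariates, the same-mouse tumours summed, and each tumour left out. The edgeR fit was tested on simulated data. Tables used Python 3.11.15, numpy 2.4.6 and pandas 2.3.3, and figures matplotlib 3.10.9. Exon lengths, overlaps and positions came from GENCODE M21, in which all 32 members matched, and promoters from RefSeq.

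Totals of 12501225 to 23912429 counts per tumour set the precision: 3 counts equal 2.02 to 4.03 normalized counts. Members described tumour by tumour were those with the 3 smallest p-values in a comparison, the 2 highest per kilobase in each cluster, those over 2-fold outside the epithelial range in the sarcoma, and those with 1 high-amplified tumour far from the rest; others are marked as chosen after their values were seen or given by their range.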

Additional observations from a re-analysis of the deposited data

Results flagged for a closer look

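Of the 6 members with a median of at least 10 normalized counts over the 9 tumours, 1 had a high-amplified tumour far from the other 4 of its group. Hoxb2, a factor that patterns the hindbrain, had 104.5 in MS1218.2 and between 5.99 and 15.1 in MS1213.1, MS1163.1, MS1163.2 and MS1155.3, and the gap to the nearest of these was 0.908 of the whole range. Chance alone takes about 1 in 20 groups of normally distributed values past the limit used, and this gap lay beyond that limit. The gap was taken on normalized counts without a log, whose distribution was not checked. With 6 members screened, the chance that some member passes is higher than 1 in 20. The not/low-amplified tumours had 23.2 to 36.4. MS1218.2 also had the highest fibroblast (355332), endothelial (10601) and leukocyte (12448) marker sums of the epithelial tumours, and their part in the Hoxb2 value was not tested.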

How the results depend on the processing

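Of 70 counts of called Hox genes under alternative settings, over the 4 comparisons, 69 were 0 as in the results above. The exception was DESeq2 by amplification, with 2 Hox genes called. The number of members at an unadjusted p under 0.05 ranged over the alternatives from 0 to 9 by amplification, 0 to 3 by histotype, 3 to 9 in the sarcoma and 1 to 4 by parity. Of 196 alternative log2 fold changes of the members with the smallest p-values, 193 kept their direction, and 3 reversed, all by histotype with amplification as a covariate: Hoxa3 (1.20), Hoxc4 (0.22) and Hoxa6 (4.01). The adjusted p of Hoxa3 by amplification ranged from 0.00455 with DESeq2 to 0.325 with parity as a covariate. Counts over all genes moved more: by amplification they ran from 1 to 1255 when 1 tumour was left out, with the highest without MS1218.2, by histotype from 4 to 84, in the sarcoma from 785 to 1174 and by parity from 0 to 147. Parous epithelial tumours alone left 11 Hox members to test by amplification, 0 of them called. No paired analysis was possible because the replicate numbers only name tumours, so that the groups share no block. Low counts limit these results: 9 members were never detected, and all but large differences in them were not detectable at this depth.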
